A study of Homo sapiens with 6 samples.

Results

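The genes described here encode subunits and assembly factors of the mitochondrial respiratory chain, complexes I to V. They were matched by gene symbol in the array's probe annotation, and the match itself used no measured value. Earlier results of these data were known when the members were chosen. Of the 14884 genes with a named probe, 52 matched and were kept, and 1 pseudogene, UQCRBP1, was left out. The 52 comprise 49 protein-coding genes and 3 non-coding RNAs that match by name because they adjoin a respiratory chain gene (COX10-DT, NDUFA6-DT and NDUFB2-AS1). The cells were ARPE-19, a human cell line derived from the retinal pigment epithelium. Both groups were first grown to confluence and differentiated for 4 weeks in medium with 1% serum. One group, of 3 biological replicates, then received 250 µM FAC in medium without serum for 2 days, and the other, also of 3, received vehicle in the same medium for the same time (untreated). FAC is the usual abbreviation of ferric ammonium citrate, an iron salt. What the vehicle contained is not given in the sources used here, so a share of iron, ammonium or citrate in a difference cannot be told apart.

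The respiratory chain passes electrons from NADH and succinate to oxygen and uses the energy to pump protons, which drive the ATP synthase, complex V. Iron is part of its chemistry. Complexes I and II carry iron-sulfur clusters, complex II also binds a heme, complex III holds the Rieske iron-sulfur protein and the hemes of cytochromes b and c1, and complex IV, cytochrome c oxidase, holds heme a beside copper. Most subunits are encoded in the nucleus, and a separate set of assembly factors inserts the metal centres and joins the subunits. In the retina, the pigment epithelium is known for its dependence on mitochondrial respiration.

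In FAC-treated cells no respiratory chain gene passed the test against untreated cells, limma on log2 intensities, where p-values were adjusted over all 14884 genes by Benjamini-Hochberg and those under 0.05 passed. Of the 52 genes 0 passed, against 555 of 14884 genes in all (3.73%), of which 280 were higher with FAC (1.88%) and 275 lower (1.85%). The smallest adjusted p of any of the 52 was 0.164, for COX7A1. Without adjustment, p was under 0.05 for 2 genes higher and 6 lower with FAC, together 15.4% of the 52. All genes gave 17.2%, with 8.14% higher and 9.06% lower. The shares over both directions, 15.4% and 17.2%, lie close to each other, so the 8 genes are described by their values and are not read as changes. By direction the 52 were split less evenly than all genes, with counts of 2 and 6 that are too small to read. In RNA of whole cultures, fewer cells of a type and less RNA per cell cannot be told apart. No second test of single genes was run, but the 14 alternative settings of the same test also passed 0 of these genes.

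The measured changes were small. The median log2 fold change of FAC over untreated was -0.013 over the 52 genes and -0.0041 over all genes, and the single values ran from -0.23 (COX7A1) to 0.29 (COA6). The median size of change, without regard to sign, was 0.057 for the 52 and 0.076 for all genes. The 52 had a higher median log2 intensity (8.05 against 7.18 over all genes) and a slightly lower median SE of the change (0.065 against 0.069), values that move with the smaller changes, and their part in them was not tested. For all 52 genes the 95% confidence interval of the change lay within 1.5-fold in both directions, and for 31 of them within 1.2-fold. Over all genes the corresponding shares were 96.5% and 55.1%. These intervals are gene by gene and are not adjusted for the number of genes. They bound the measured signal, and 5 of the 52 genes were among the dimmest 33.3%, where a change may be missed.

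**Figure D1:**
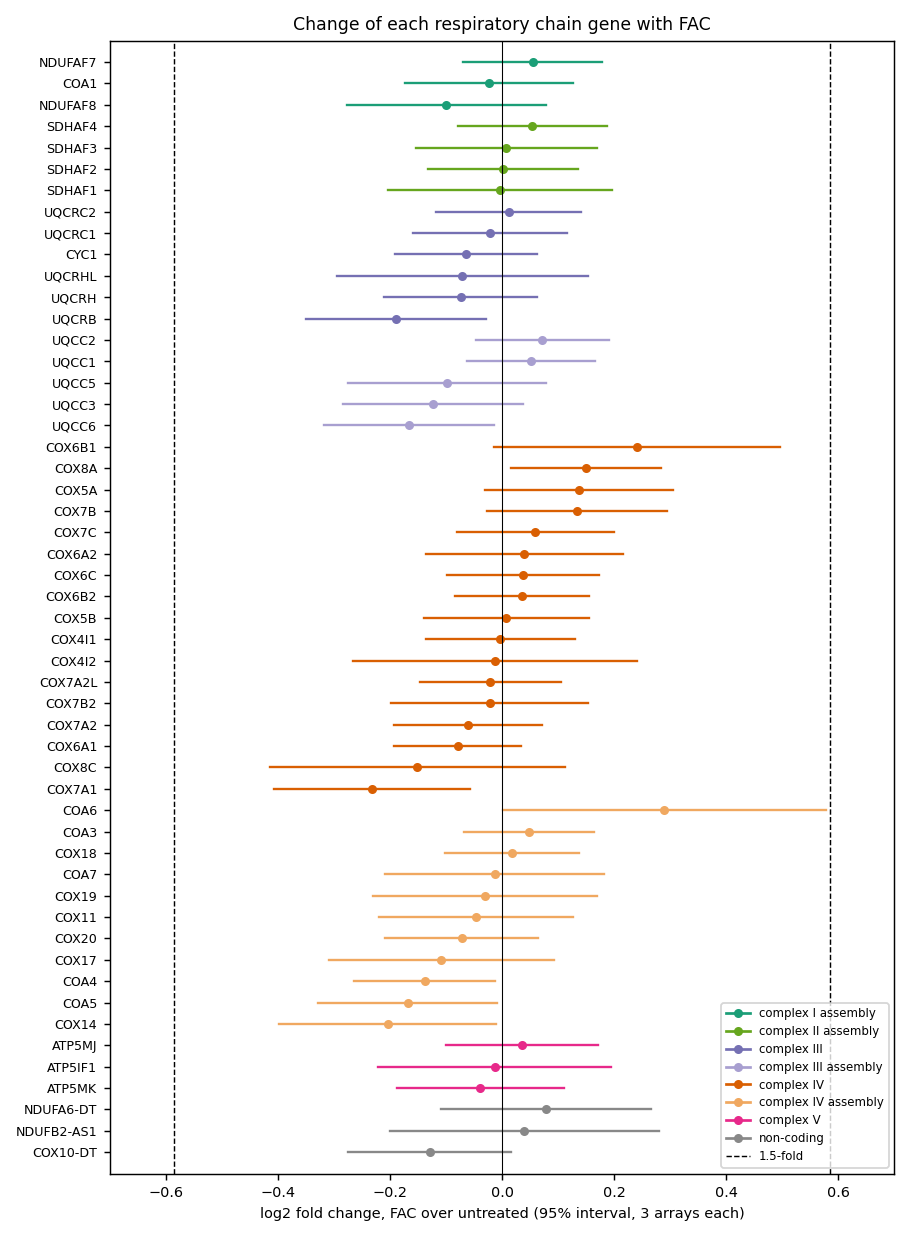
Log2 fold change of FAC over untreated for each of the 52 genes, with its 95% confidence interval (limma, 3 arrays per group), grouped by complex from top to bottom. Every interval lies between the dashed lines at 1.5-fold, and the widest reach is that of COA6, whose upper bound is 0.58.

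Of the listed genes of complex I, none of the 7 core subunits and none of the 30 accessory subunits matched a named probe, so the largest complex is seen here through 3 assembly factors. The 4 subunits of complex II likewise had no named probe, while its 4 assembly factors did. Complex III was covered by 6 subunits and 5 assembly factors, complex IV by 17 subunits and 11 assembly factors, and complex V by 3 genes. Of the genes whose proteins carry iron-sulfur clusters or heme, CYC1 alone was measured. NDUFS1, NDUFS7, NDUFS8, NDUFV1, NDUFV2, SDHB, SDHC, SDHD and UQCRFS1, the heme A enzyme genes COX10 and COX15, NDUFA4 and NDUFA4L2, and the 13 mitochondrially encoded subunits had no named probe and were not analysed here. Log2 intensity depends on the probe as well as on the transcript, so a gene's level is set against the other group, and its place among all genes is given only as a measure of brightness.

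Over the 6 arrays the median log2 intensity of all probes lay between 6.03 and 6.09, and pairs of arrays correlated with Pearson's r between 0.991 and 0.995. The deviation of the 49 protein-coding genes from their own means over the 6 arrays had medians of 0.0037, -0.019 and 0.0096 on FAC arrays 1 to 3, and 0.0039, -0.024 and 0.023 on untreated arrays 1 to 3. The groups overlap in this measure, with untreated arrays at both ends. Of 17 listed markers of retinal pigment epithelium 13 were measured, and 0 of them passed the test. Log2 fold changes of the 13 ran from -0.20 ± 0.22 (SE) for the pigment gene TYRP1 to 0.31 ± 0.08 for RLBP1. RLBP1, a retinoid carrier, had the smallest adjusted p of the 13 (0.0843, limma). OTX2, a transcription factor of that tissue, averaged 11.04 in FAC-treated and 11.10 in untreated cells. RPE65, the isomerase of the visual cycle, averaged 5.69 and 5.67 in the same order, at percentile 22.6 of all genes, and without detection calls its presence cannot be judged. Summed log2 intensities of the 13 markers lay between 98.5 and 99.1 on the FAC arrays and between 97.5 and 100.3 on the untreated arrays. Among the listed markers of other cell types, CSF1R of blood cells passed, averaging 8.07 in FAC-treated and 8.45 in untreated cells. CD14, the other measured blood marker, averaged 5.30 and 5.26 in the same order and did not pass, and the part of these markers in the values given here was not tested.

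The promoters show a feature that the choice by symbol did not use. Nuclear respiratory genes are known to be driven by NRF1, by ETS family factors such as GABP (also called NRF-2), by YY1 and by SP1. RefSeq promoter windows, from 250 bases before to 50 after a gene's start, were found for 41 of the 49 protein-coding genes and for 10749 of all tested genes. The ETS letters CCGGAAG, searched on both strands, were present in 15 of the 41 genes (36.6%) and in 17.1% of all tested genes. The tested genes were not matched to the 41 in brightness or gene type, so a share of those traits in the difference was not tested. Shown are 7 promoters that hold the letters near the start, all 5 of complex IV subunits with 1 each of an assembly factor and of complex V as examples. Each line runs 5′ to 3′ on the gene's strand from 75 bases before to 25 after the start, from RefSeq (GRCh38.p14). CCGGAAG or its reverse complement CTTCCGG is in capitals.
COX4I1: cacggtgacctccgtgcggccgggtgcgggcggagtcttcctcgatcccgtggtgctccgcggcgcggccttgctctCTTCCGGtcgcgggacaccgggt
COX5B: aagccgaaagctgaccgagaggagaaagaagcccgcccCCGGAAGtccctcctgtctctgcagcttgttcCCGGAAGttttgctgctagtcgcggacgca
COX6A1: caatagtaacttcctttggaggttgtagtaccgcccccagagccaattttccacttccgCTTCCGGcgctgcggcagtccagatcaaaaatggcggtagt
COX6B1: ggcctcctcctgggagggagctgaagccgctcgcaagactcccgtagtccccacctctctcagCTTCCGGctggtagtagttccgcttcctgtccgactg
COX8A: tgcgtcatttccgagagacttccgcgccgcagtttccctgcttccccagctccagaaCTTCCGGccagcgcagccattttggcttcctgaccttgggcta
COA5: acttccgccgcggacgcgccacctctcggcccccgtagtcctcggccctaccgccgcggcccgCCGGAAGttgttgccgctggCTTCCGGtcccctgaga
ATP5MK: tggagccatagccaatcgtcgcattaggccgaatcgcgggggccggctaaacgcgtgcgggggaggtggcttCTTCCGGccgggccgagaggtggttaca

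These stretches lie at chr16:85799620-85799719 (COX4I1, plus strand), chr2:97645987-97646086 (COX5B, plus), chr12:120438038-120438137 (COX6A1, plus), chr19:35648248-35648347 (COX6B1, plus), chr11:63974545-63974644 (COX8A, plus), chr2:98608488-98608587 (COA5, minus) and chr10:103396451-103396550 (ATP5MK, minus). COX5B and COA5 show the letters at 2 places each. Within the stretch from 60 bases before to 20 after the start, a range chosen after the matches were seen, 12 of the 41 genes (29.3%) and 10.2% of all tested genes held them. The 5 genes not shown are UQCRH, COX17, COA1, SDHAF2 and NDUFAF8.

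Complex III hands electrons from ubiquinol to cytochrome c. CYC1, the gene of cytochrome c1 and of the heme that passes electrons to cytochrome c, had log2 intensities of 9.16, 9.22 and 9.26 on the FAC arrays and 9.28, 9.32 and 9.23 on the untreated arrays. The groups overlapped, since untreated replicate 3 lay below FAC replicate 3. The change was -0.06 ± 0.05 (SE), with an adjusted p of 0.622 by limma and a 95% interval of -0.19 to 0.06. UQCRB, a small subunit beside the ubiquinone site, measured 7.58, 7.63 and 7.45 on the FAC arrays against 7.77, 7.65 and 7.81 on the untreated arrays. All FAC values were below all untreated values, but by only 0.023 between the nearest pair, and the change of -0.19 ± 0.07 did not pass (adjusted p = 0.211, limma).

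The large core subunit genes of complex III showed means close to each other in both groups. UQCRC1 averaged 9.01 ± 0.08 in FAC-treated and 9.04 ± 0.03 in untreated cells (SD, n = 3 each), and UQCRC2 averaged 11.64 ± 0.07 and 11.63 ± 0.02. The hinge subunit gene UQCRH and its intronless, nearly identical copy UQCRHL had log2 fold changes of -0.07 ± 0.06 and -0.07 ± 0.10. Probes may not separate that pair, so their single values are uncertain.

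The assembly factors of complex III, which mature its mitochondrially encoded cytochrome b, differed in sign. UQCC6, a small factor of the inner membrane also known as brawnin, gave 8.15, 8.10 and 8.24 with FAC against 8.42, 8.24 and 8.32 in untreated cells. Its groups did not overlap, with a gap of 0.0089 between FAC replicate 3 and untreated replicate 2 (change -0.17 ± 0.07, adjusted p = 0.248 by limma). UQCC1 and UQCC2, which act as partners in cytochrome b synthesis, also had groups that did not overlap, in the other direction. Their changes were 0.05 ± 0.05 and 0.07 ± 0.05, with adjusted p-values of 0.666 and 0.541 (limma). UQCC3 (-0.12 ± 0.07) and UQCC5 (-0.10 ± 0.08) had overlapping groups.

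Non-overlap of this kind was no more frequent here than elsewhere. Among the 52 genes, 6 had all FAC values above all untreated values and 5 had them all below, together 21.2%. Over all genes 23.4% had groups that did not overlap, 10.4% with FAC higher and 13.0% with FAC lower. Beside UQCC1 and UQCC2, the genes with FAC higher were COA3, COA6, COX7B and COX8A. The genes with FAC lower were COA4, COX6A1 (by its brighter probe), COX7A1, UQCC6 and UQCRB.

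Complex IV reduces oxygen to water with electrons from cytochrome c, and its measured nuclear subunits surround a mitochondrially encoded core. The median change of the 17 subunits was 0.0077, with 9 above 0 and 8 below. COX8A, the general form of the smallest subunit, had the smallest p among those above 0. Its log2 intensities were 11.45, 11.42 and 11.50 with FAC, against 11.28, 11.39 and 11.26 in untreated cells. The FAC arrays were all higher, by 0.036 between the nearest pair, and the change of 0.15 ± 0.06 corresponded to 1.11-fold (adjusted p = 0.239, limma). This gene came closest to passing under any setting, with an adjusted p of 0.0515 when limma's variance prior followed intensity and was estimated robustly.

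COX6B1, a subunit facing the intermembrane space, had the highest change of the complex IV subunits, 0.24 ± 0.11. Its values were 8.29, 8.06 and 8.18 on the FAC arrays and 7.86, 7.77 and 8.18 on the untreated arrays. Untreated replicate 3 stood among the FAC values, so the groups overlapped (adjusted p = 0.32, limma), and without that array the change was 0.36, while without untreated replicate 2 it was 0.16. COX5A, a matrix-side subunit, measured 10.45, 10.19 and 10.31 with FAC and 10.19, 10.17 and 10.18 without. Here FAC replicate 1 lay highest, and FAC replicate 2 lay within the untreated range (change 0.14 ± 0.07, adjusted p = 0.39 by limma). Without FAC replicate 1 the change of COX5A was 0.07. COX7B averaged 8.52 ± 0.05 in FAC-treated and 8.39 ± 0.11 in untreated cells (SD, n = 3 each), a change of 0.13 ± 0.07 that was 0.07 without untreated replicate 2.

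**Figure D2:**
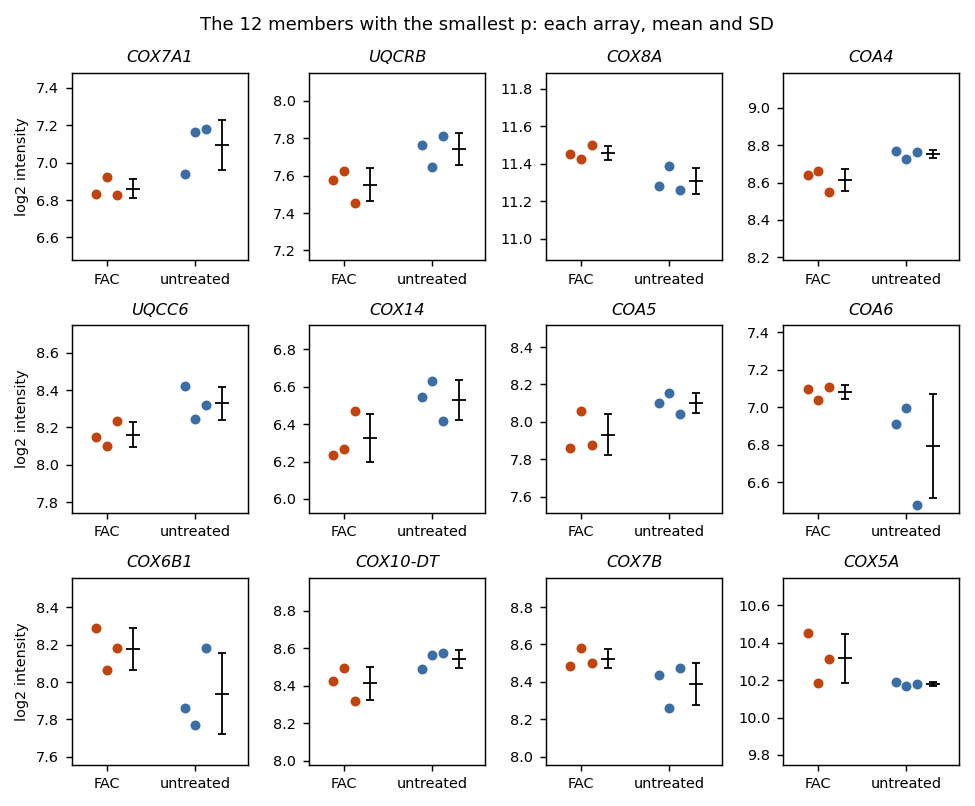
Log2 intensity on each array for the 12 genes with the smallest p, FAC on the left and untreated on the right, with the mean and SD of 3 arrays beside the points. Every panel spans 1 log2 unit, and the differences between group means stay between -0.23 for COX7A1 and 0.29 for COA6.

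Several complex IV subunits exist as a general isoform and as one restricted to certain tissues or conditions, and 6 such pairs were measured. The pair of subunit 4 is known for its answer to oxygen, since hypoxia-inducible factors (HIF) raise COX4I2 and, in that state, COX4I1 is degraded. COX4I1 gave 12.55, 12.63 and 12.62 on the FAC arrays and 12.61, 12.67 and 12.54 on the untreated arrays. The groups overlapped fully, the change was -0.0033 ± 0.057, and its 95% interval ran from -0.14 to 0.13. COX4I2 gave 6.84, 7.02 and 7.30 with FAC and 7.02, 7.13 and 7.04 in untreated cells. Here the FAC arrays lay on both sides of the untreated ones, with a change of -0.01 ± 0.11 and an interval of -0.27 to 0.24.

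COX7A1, the form of heart and skeletal muscle, had the most negative change of all 52 genes. It measured 6.83, 6.92 and 6.83 on the FAC arrays and 6.94, 7.16 and 7.18 on the untreated arrays. The groups did not overlap, although untreated replicate 1 lay only 0.019 above FAC replicate 2. The change was -0.23 ± 0.08, or 0.851-fold (adjusted p = 0.164, limma), with an interval of -0.41 to -0.06. Its general partner COX7A2 averaged 8.26 ± 0.05 in FAC-treated and 8.32 ± 0.06 in untreated cells, and the related supercomplex factor COX7A2L averaged 7.63 ± 0.06 and 7.66 ± 0.01 (SD, n = 3 each). COX6A1, the general form of subunit 6A, had very little spread, with 12.59, 12.63 and 12.64 with FAC against 12.69, 12.70 and 12.71 in untreated cells. These groups did not overlap, yet the change was only -0.08 ± 0.05 (adjusted p = 0.472, limma). A second, much dimmer probe of COX6A1 gave a difference of 0.12, the opposite sign. By its identifier the brighter probe stands among those of chromosome 6 genes, and the dimmer among those of chromosome 12, where COX6A1 lies. Which locus the brighter probe reads was not tested, so its values may not be those of COX6A1.

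The remaining restricted forms lay low on the array. COX6A2 of muscle, COX6B2, COX7B2 and COX8C of testis were all among the dimmest 33.3% of genes by mean level, where a change can be missed. Their changes were 0.04, 0.04, -0.02 and -0.15 in that order. The value of COX8C was -0.27 without untreated replicate 2, and -0.09, -0.09 and -0.07 without untreated replicates 1 and 3 and FAC replicate 2. Whether the FAC difference was another in the restricted form than in its general partner was tested on the log2 ratio of the pair within each array, with an exact two-sided permutation test over arrays. The ratio of COX7A1 to COX7A2 differed between FAC and untreated by -0.17 ± 0.09 (SE) and that of COX4I2 to COX4I1 by -0.0089 ± 0.12. The other pairs gave values between -0.30 (COX8C to COX8A) and 0.12 (COX6A2 to COX6A1), the last with the brighter COX6A1 probe of uncertain locus. In none of the 6 pairs did the groups separate, and the adjusted p was 0.36 in 5 pairs and 0.9 for subunit 4. With 3 arrays against 3 the smallest p this test can give is 0.1, so it could not pass at 0.05.

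**Figure D3:**
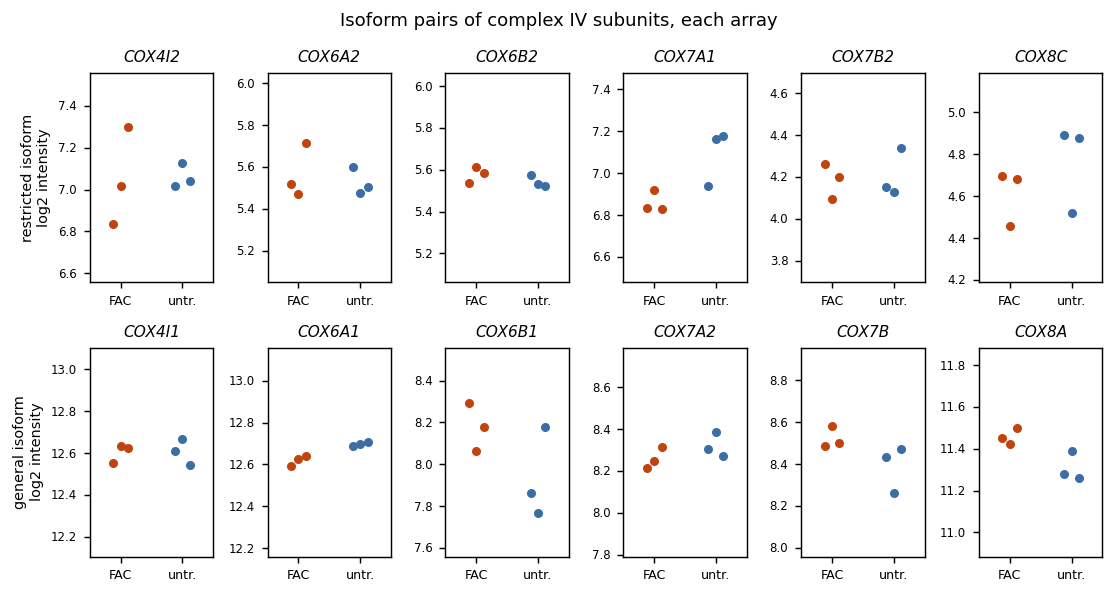
Log2 intensity on each array for 6 isoform pairs of complex IV subunits, the restricted form above and the general form below, with FAC on the left and untreated (untr.) on the right of each panel. All panels span 1 log2 unit, and among them COX7A1, COX6A1, COX7B and COX8A have groups that do not overlap. COX6A1 is shown by its brighter probe, whose locus is uncertain.

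The 11 assembly factors of complex IV had a median change of -0.05, with 3 values above 0 and 8 below. COA6, which helps deliver copper to the COX2 subunit, measured 7.10, 7.04 and 7.11 on the FAC arrays and 6.91, 6.99 and 6.48 on the untreated arrays. Untreated replicate 3 lay far below the other two, which themselves were below every FAC array, by 0.046 at the nearest. The change was 0.29 ± 0.12, or 1.22-fold (adjusted p = 0.288, limma), and without untreated replicate 3 it was 0.13. COX14, which binds newly made COX1, had overlapping groups with 6.24, 6.27 and 6.47 with FAC and 6.54, 6.63 and 6.42 in untreated cells (change -0.20 ± 0.08). COA5 averaged 7.93 ± 0.11 in FAC-treated and 8.10 ± 0.05 in untreated cells, and COA4 averaged 8.62 ± 0.06 and 8.75 ± 0.02 (SD, n = 3 each).

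The other copper factors had wide overlaps between the groups. COX17, the copper chaperone of the intermembrane space, had a log2 fold change of -0.11 ± 0.09, COX11, which passes copper to COX1, one of -0.05 ± 0.07, and COX19 one of -0.03 ± 0.09. The chaperones of COX2 gave 0.02 ± 0.05 (COX18, which inserts it into the membrane) and -0.07 ± 0.06 (COX20).

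For complexes I and II the assembly factors were the genes at hand. NDUFAF7, an assembly factor of complex I, averaged 8.07 ± 0.05 in FAC-treated and 8.01 ± 0.03 in untreated cells. NDUFAF8, the partner of NDUFAF5 in complex I assembly, averaged 8.44 ± 0.11 and 8.54 ± 0.10, and COA1 averaged 8.83 ± 0.02 and 8.85 ± 0.10 (SD, n = 3 each). SDHAF1 and SDHAF3 help place iron-sulfur clusters in SDHB. SDHAF1 averaged 6.93 ± 0.07 in FAC-treated and 6.94 ± 0.16 in untreated cells (SD, n = 3 each), and the untreated arrays spread around the FAC arrays. Its change was -0.0036 ± 0.087, with a 95% interval of -0.20 to 0.20. SDHAF3 had a log2 fold change of 0.0075 ± 0.070, SDHAF2, which attaches flavin to SDHA, one of 0.0012 ± 0.058, and SDHAF4, a chaperone of SDHA, one of 0.05 ± 0.06. All 4 intervals of the complex II factors lay within 1.2-fold.

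Complex V was seen through a pair of small membrane subunits and its inhibitor. ATP5MK, also known as DAPIT, averaged 10.01 ± 0.10 with FAC and 10.05 ± 0.01 in untreated cells. ATP5MJ averaged 7.45 ± 0.07 and 7.41 ± 0.04 in the same order. ATP5IF1, which blocks ATP hydrolysis when the proton gradient fails, measured 6.90, 6.84 and 6.58 on the FAC arrays and 6.74, 6.76 and 6.87 on the untreated arrays. FAC arrays held both the highest and the lowest of its values (change -0.01 ± 0.09). These 3 intervals also lay within 1.2-fold.

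The 3 non-coding RNAs gave no call either. COX10-DT, transcribed away from COX10 on the opposite strand, averaged 8.41 ± 0.09 in FAC-treated and 8.54 ± 0.05 in untreated cells (SD, n = 3 each), a change of -0.13 ± 0.06 (adjusted p = 0.351, limma) that was -0.08 without FAC replicate 3. For NDUFA6-DT the brighter probe gave 0.08 and the other probe -0.21, so its direction is not settled. NDUFB2-AS1 had a log2 fold change of 0.04 ± 0.10. None of these stands for the level of its coding neighbour.

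Genes with and without the ETS letters shown above had changes in the same range. The 15 with CCGGAAG had a median change of -0.04, from -0.17 to 0.24, and the 26 without it a median of 0.01, from -0.20 to 0.29. COX5B averaged 8.10 ± 0.07 in FAC-treated and 8.09 ± 0.08 in untreated cells (SD, n = 3 each). The other letters searched, each on both strands, differed from all tested genes by fewer percentage points, although the rare NRF1 letters differed by a like ratio. The NRF1 palindrome stood in 2 genes (4.88% against 2.20%), COX17 and COX18, and AAGATGGC of YY1 in 3 (7.32% against 4.86%), NDUFAF8, UQCC2 and UQCRC1. GGGCGG of SP1 was found in 68.29% against 65.97%, and TATAAA in 9.76% against 11.1%. ACGTG or GCGTG, the core that HIF binds, was found in 73.2% against 63.6%. ACGTG and GCGTG are short and can overlap other motifs, and a match is a string of letters, not a bound site. Median GC content was 62.0% (quartiles 57.1% and 67.1%) over the 50 windows of these genes and 62.7% (53.7% and 70.3%) over those of all tested genes.

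**Figure D4:**
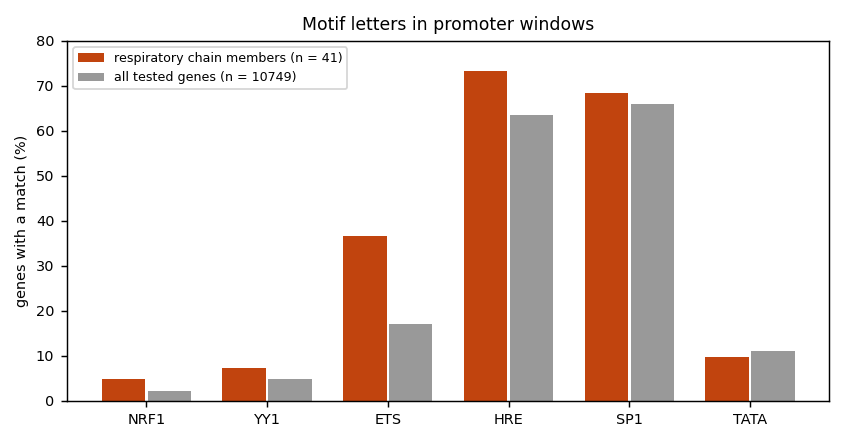
Percent of genes with at least 1 promoter window that holds each motif's letters, for 41 respiratory chain genes (left bars) and 10749 tested genes (right bars). The share with the ETS letters is 36.6% against 17.1%, and the other motifs differ by less than 10 percentage points.

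The 6 lists of genes that supply the respiratory chain held no gene that passed, where 3.73% of all genes did, and lists this short hold few genes at such a share. Each list was measured only in part, so its unmeasured genes cannot be judged. None of 9 measured genes of cytochrome c and ubiquinone supply (19 listed) passed (median change -0.0020). COQ10A, a ubiquinone-binding protein, stood at 0.21 ± 0.08. None of 22 other measured assembly factors (27 listed) passed (median -0.03). The complex I factor TMEM186 stood at -0.23 ± 0.09 and SMIM20, a complex IV factor, at 0.15 ± 0.07. None of 12 measured genes of iron-sulfur cluster assembly (19 listed) passed (median 0.02). ISCA2, which acts late in the making of larger clusters, had a log2 fold change of 0.18 ± 0.08, and FDX1, a ferredoxin, one of 0.15 ± 0.06.

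None of 7 measured genes of heme synthesis (12 listed) passed (median -0.03). ALAD, CPOX and PPOX, however, had all FAC values below all untreated ones and an unadjusted p under 0.05. These 3 of 7 are 42.9%, where 13.0% of all genes lay wholly lower with FAC and 9.06% were lower at that unadjusted p. ALAD, the second enzyme of the pathway, averaged 7.54 ± 0.08 in FAC-treated and 7.74 ± 0.02 in untreated cells (SD, n = 3 each). FECH, which inserts iron into protoporphyrin, averaged 8.66 ± 0.02 and 8.69 ± 0.07. Only 6 of 17 listed factors of mitochondrial biogenesis were measured, with a median of -0.04, and 0 passed. The nuclear receptor gene ESRRA stood at 0.09 ± 0.06 and NRF1 at -0.09 ± 0.06. Of 11 measured genes of the citric acid cycle and pyruvate dehydrogenase (18 listed) 0 passed (median -0.0098). PDHA1 stood at -0.15 ± 0.07 and OGDH at 0.10 ± 0.06.

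Of 11 listed HIF targets that shift cells away from respiration 6 were measured, and all 6 were lower with FAC and passed, where 1.85% of all genes did so. They are LDHA, which turns pyruvate into lactate, the mitophagy receptor genes BNIP3 and BNIP3L, the glycolytic genes HK2 and PGK1, and MIR210HG, the host transcript of a microRNA known to repress ISCU and a complex IV assembly factor. LDHA averaged 8.02 ± 0.13 in FAC-treated and 8.46 ± 0.10 in untreated cells (SD, n = 3 each), a change of -0.44 ± 0.08 (adjusted p = 0.0308, limma). BNIP3L averaged 11.96 ± 0.02 and 12.22 ± 0.05, a change of -0.25 ± 0.05 (adjusted p = 0.0428, limma). The list's median was -0.59, and its members ran from -0.78 to -0.25, while the most negative respiratory chain gene, COX7A1, stood at -0.23. Several of these genes were known to be lower in these data when the list was drawn up. Neither its direction nor its share of passing genes is therefore independent evidence. Under the 14 alternative settings, a look added after seeing the data, all 6 stayed below 0 and BNIP3, MIR210HG, HK2 and PGK1 passed in each. BNIP3L did not pass without any 1 of the 6 arrays, with every probe tested or with the replicate block, with adjusted p-values of up to 0.159 (limma). LDHA did not pass in 6 of those 8 settings, the exceptions being without FAC replicate 1 and without untreated replicate 2, with adjusted p-values of up to 0.112 (limma). ISCU itself averaged 8.24 ± 0.05 in FAC-treated and 8.13 ± 0.05 in untreated cells, a change of 0.12 ± 0.06 (adjusted p = 0.336, limma). Whether MIR210HG bears on the ISCU values was not tested.

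**Figure D5:**
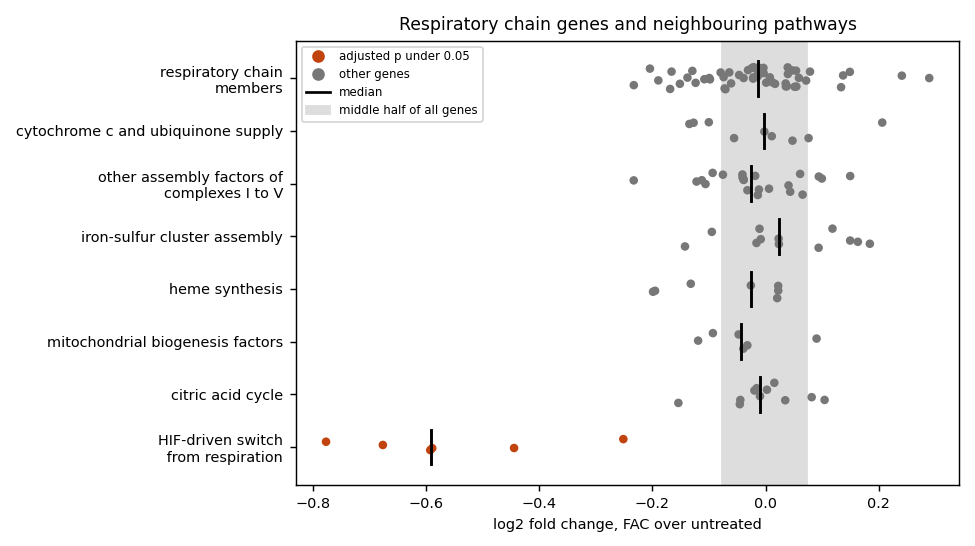
Log2 fold change of FAC over untreated for each of the 52 genes (top row) and each measured gene of 7 neighbouring lists. Black lines are at the medians, and a grey band marks the middle 50% of all genes. Coloured points passed at an adjusted p under 0.05, and they stand in the list of HIF targets alone, at -0.78 to -0.25. Several of these targets were known to be lower in these data when their list was drawn up.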

How the data were processed

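Each of 6 total RNA samples was labelled with biotin for its own array, per the labels' protocols. The authors deposited 1 table of 53617 probes on the log2 scale, which was inferred from its range of 2.41 to 14.22. The submitters' processing notes name RMA and Partek 6.6, with no order or role. Neither detection calls nor scan dates were in the table, so signal over background and scan batches could not be examined, and the number of arrays limits the precision.

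Platform annotation names 16098 probes with 1 symbol each, and the other 37519 are unnamed here. Where several probes named a gene (779 genes), the one of highest mean stood for it. The comparison of FAC with untreated arrays used lmFit and eBayes of limma 3.58.1 under R 4.3.3 (two-sided, all 14884 genes, threshold 0.05). The procedure was tested on simulated data. P-values set the difference between the groups against the spread between these cultures, labelled biological replicates with no further detail.

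The members, lists and tests were chosen with earlier results of these data known. Genes are named if they had 1 of the 12 smallest p-values or the highest or lowest change of their complex, stood on a fixed set of metal carriers and isoforms, or led a list. Further members are named as partners or to complete a class, after their values were seen. Alternatives were quantile normalization, median centring, a filter on dim genes, an intensity trend, array weights, averaged probes, all probes, a replicate block, and dropping every array once.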

Additional observations from a re-analysis of the deposited data

How the results depend on the processing

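The count of 0 respiratory chain genes passing held under all 14 alternatives, with the smallest adjusted p in any of them 0.0515 (limma with an intensity trend and robust prior). Several alternatives passed fewer genes in all, as given next, and a 0 among 52 genes adds little there. Over all genes the count of 555 became 840 without the dimmest 33.3%, 1026 with an intensity trend and robust prior, 111 when every probe was tested, and 184 with the replicate number as a block, and it lay between 147 and 447 without any 1 array, a shift of over 1.5 times without each of FAC replicates 1, 2 and 3 and untreated replicates 1 and 3. The cause of these shifts was not tested beyond the fewer genes, fewer samples or more probes that the settings hold. Same-numbered FAC and untreated arrays had deviations correlating at -0.02, -0.03 and -0.15, so no variation shared by number was seen. Whether the cultures were set up as pairs is not given. The block passed 0 respiratory chain genes. The median change of the 52 genes was -0.0014 with quantile normalization and -0.03 with median centring, and lay between -0.03 and 0.02 without any 1 array, positive only without untreated replicate 3. Of the 31 respiratory chain genes picked by the naming rule, 9 turned sign somewhere, none with a change above 0.08 in size, and none passed. Sign turns of the further members named in the text were not counted. Quantile normalization gave 0.013 for COX4I1 and 0.0026 for COX7A2L, averaged probes gave 0.019 for COX6A1 and -0.065 for NDUFA6-DT, and array weights gave 0.0030 for SDHAF1. Without any 1 array the changes lay between -0.035 and 0.028 (COX4I1), -0.14 and 0.095 (COX4I2), -0.034 and 0.087 (COX6A2), -0.061 and 0.044 (COX7B2), -0.071 and 0.084 (SDHAF1) and -0.013 and 0.049 (UQCRC2). In genes of low intensity a change may be missed, and 5 of the 52 were among the dimmest 33.3%.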
